A study of Mus musculus with 15 samples.

Results

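The non-clustered delta protocadherins are single-pass transmembrane proteins of the cadherin superfamily, each encoded by a gene of its own rather than in the clustered Pcdh arrays. All 10 members, Pcdh1, Pcdh7, Pcdh8, Pcdh9, Pcdh10, Pcdh11x, Pcdh17, Pcdh18, Pcdh19 and Pcdh20, were taken by symbol from the 22524 gene identifiers counted in each of 15 libraries. All 10 passed the filter on low counts, as did 14989 genes in all. The set was chosen by the measured levels in D95N against wild type, so that contrast is given for the members as a description. Whether a member passed the threshold of the fit over all genes is stated as a label of its values, not as a test of the member, and nothing is read from how many passed.

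Read counts came from 7 female C57BL/6 mice aged 18 months that were heterozygous for Rps9 D95N, with 1 substituted and 1 wild-type copy of this gene of the small ribosomal subunit, and from 8 wild-type littermates of the same sex, strain and age. The groups are called D95N and wild type, and each library is named by its genotype and animal number. The design text names brain cortex, whereas the tissue field of every sample names skeletal muscle. Tissue was frozen and its RNA extracted with Trizol before sequencing.

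Total counts ran from 24671978 and 23349381 in D95N 28 and D95N 50, the shallowest libraries, to 34587082 in the deepest. The markers fit neural tissue and not the tissue field. The summed level of 7 pan-neuronal markers was 9848 to 10706 CPM (read counts normalised for library size with TMM factors) in D95N and 9847 to 10724 CPM in wild type. That of 8 skeletal muscle markers, 5 of which passed the filter, was 7.26 to 11.5 CPM in D95N and 8.08 to 30.8 CPM in wild type. Rps9 itself averaged 63.1 ± 6.13 CPM in D95N (SD, n = 7) and 65.3 ± 3.02 CPM in wild type (SD, n = 8), and gene counts cannot show the substitution. On the first principal component of log2 CPM, which held 36.6% of the variance, D95N 42 lay at -14.5, inside the wild-type range of -20.4 to -11.0, whereas the other D95N libraries lay at 5.18 to 33.6. Some values are therefore given with and without it, among them the fold changes of Pcdh8, Pcdh1, Pcdh7, Pcdh11x, Pcdh19 and Pcdh20. A D95N value without such a counterpart includes D95N 42 and may depend on it.

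Delta protocadherins bind like molecules on neighbouring cells and steer cell sorting, axon growth and synapse formation. They fall into the delta-1 members Pcdh1, Pcdh7, Pcdh9 and Pcdh11x, which carry more extracellular cadherin repeats, and the delta-2 members Pcdh8, Pcdh10, Pcdh17, Pcdh18, Pcdh19 and Pcdh20. Their cytoplasmic tails lack the catenin-binding site of classical cadherins, and several delta-2 tails recruit the WAVE complex, which drives branching of actin filaments. In the cortex their transcripts differ between layers and areas, so the mix of members differs between neurons.

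Pcdh8 and Pcdh1 lay on the higher side in D95N beyond the threshold of the fit, 6 members lay on the lower side beyond it, and Pcdh7 and Pcdh17 lay short of it. That threshold was an adjusted p under 0.05 in edgeR's quasi-likelihood test of all 14989 genes, which called 26.8% of them, 15.2% higher and 11.6% lower. Of the 4 delta-1 members 1 was called higher and 2 lower, and of the 6 delta-2 members 1 was called higher and 4 lower. The median log2 fold change, D95N over wild type, was -0.18 over the 10 members and -0.01 over all tested genes. No member had every D95N library above every wild-type library, as 1.81% of tested genes did, and 2 had every D95N library below, as 1.47% did. In RNA from whole tissue, fewer cells of a type and less RNA per cell cannot be told apart.

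**Figure D1:**
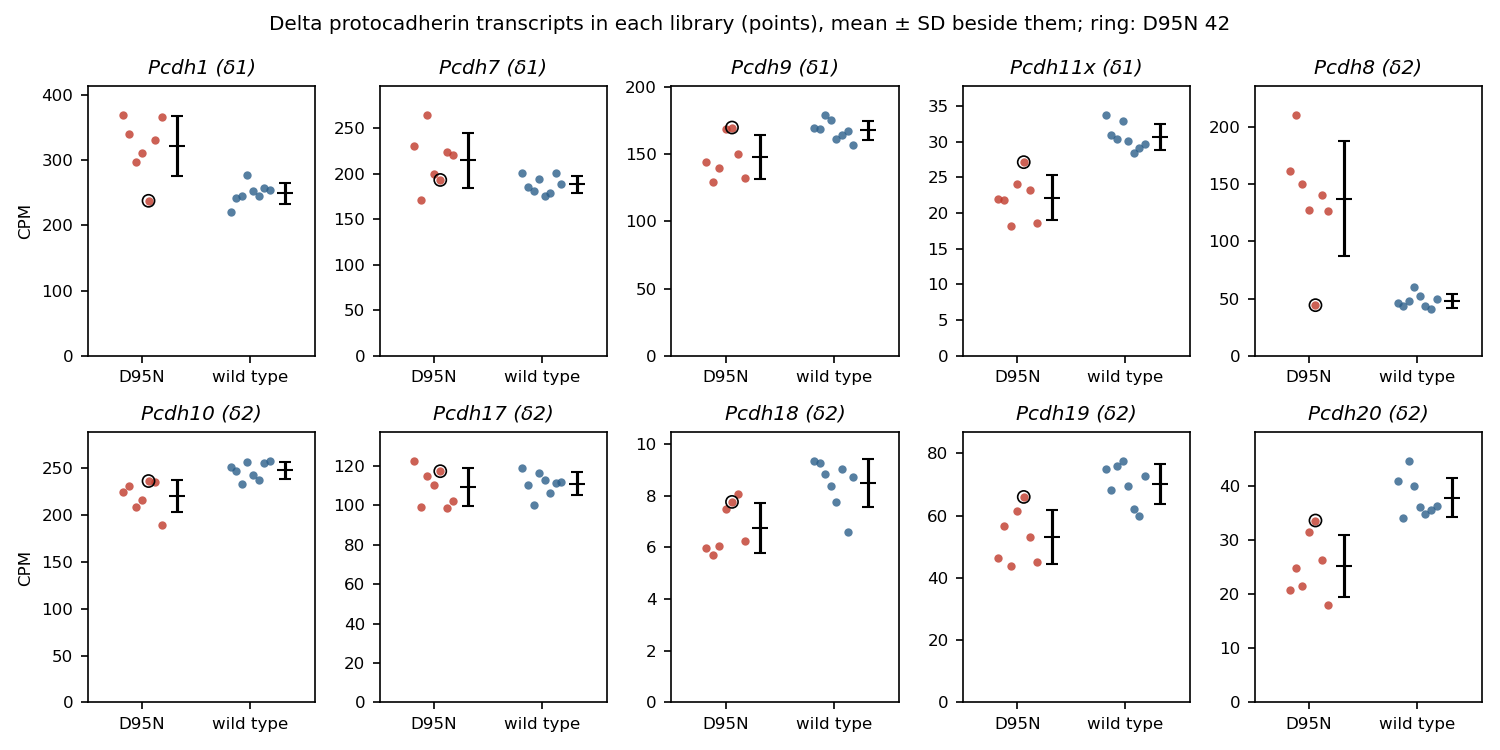
Level of each delta protocadherin transcript (CPM, y axis from 0) in 7 D95N and 8 wild-type libraries, with delta-1 and delta-2 members marked in the panel titles. Points are libraries, the bar beside them is the mean ± SD, and the ring marks D95N 42. Pcdh8 stands at 126 to 210 CPM in the D95N libraries without a ring and at 41.2 to 59.9 CPM in wild type, and for Pcdh11x and Pcdh20 no D95N point reaches the wild-type points.

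Pcdh8, also called arcadlin, is the member known as an activity-regulated gene, and in rat neurons its product drives N-cadherin off the surface of synapses. It lies on chromosome 14 from 79766775 to 79771312 of GRCm38, on the minus strand. Its level was 161 CPM in D95N 21, 210 CPM in D95N 28, 150 CPM in D95N 4, 127 CPM in D95N 41, 44.3 CPM in D95N 42, 141 CPM in D95N 44 and 126 CPM in D95N 50, against 46.1, 43.9, 48.1, 59.9, 51.9, 43.6, 41.2 and 49.5 CPM in wild type 11, 16, 19, 24, 30, 32, 43 and 8. All D95N libraries but D95N 42 lay above every wild-type library, and D95N 42 lay within them, so the groups overlapped. Means were 137 ± 49.9 CPM in D95N (SD, n = 7) and 48.0 ± 5.91 CPM in wild type (SD, n = 8), a 2.85-fold difference with a log2 fold change of 1.51 ± 0.21 (SE). Leaving out D95N 42 gave 1.67, and leaving out D95N 28 gave 1.38. Of its exon length, 9.61% lies under an antisense transcript, and no source used here gives the strand setting of the counting, so reads of the 2 cannot be told apart there.

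Pcdh20, a delta-2 member of the same chromosome (chromosome 14, 88464743 to 88471396, minus strand), had the lowest D95N to wild-type ratio of the family. It stood at 20.8, 24.9, 21.4, 31.6, 33.6, 26.4 and 18.1 CPM in D95N 21, 28, 4, 41, 42, 44 and 50, against 40.96, 34.2, 44.6, 39.96, 36.1, 34.9, 35.6 and 36.3 CPM in wild type 11, 16, 19, 24, 30, 32, 43 and 8. Every D95N library lay below every wild-type library, D95N 42 and D95N 41 being nearest to them. The means were 25.3 ± 5.73 CPM in D95N (SD, n = 7) and 37.8 ± 3.62 CPM in wild type (SD, n = 8), a log2 fold change of -0.58 ± 0.11 (SE). Leaving out D95N 42 gave -0.66.

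The 250 bases before the annotated start of Pcdh8, Pcdh20 and Pcdh10 are shown because these members cover the highest ratio, the lowest ratio and a small difference at a high level, and because Pcdh8 is known as activity-regulated. Capitals mark every match, on either strand, to the TATA box (TATAAA), the cAMP response element (CRE, TGACGTCA), its core (TGACG), the AP-1 site (TGANTCA) or the GC box (GGGCGG). A full CRE would also count as a core match. The sequences are RefSeq's for build GRCm38.p6, given from 5′ to 3′ on the strand of the gene, from chr14:79771313-79771562 (minus), chr14:88471397-88471646 (minus) and chr3:45378148-45378397 (plus).
Pcdh8: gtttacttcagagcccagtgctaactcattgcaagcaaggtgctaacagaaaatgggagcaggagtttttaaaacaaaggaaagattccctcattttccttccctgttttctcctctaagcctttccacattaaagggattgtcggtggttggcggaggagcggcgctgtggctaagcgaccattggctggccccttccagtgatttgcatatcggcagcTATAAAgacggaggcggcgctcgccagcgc
Pcdh20: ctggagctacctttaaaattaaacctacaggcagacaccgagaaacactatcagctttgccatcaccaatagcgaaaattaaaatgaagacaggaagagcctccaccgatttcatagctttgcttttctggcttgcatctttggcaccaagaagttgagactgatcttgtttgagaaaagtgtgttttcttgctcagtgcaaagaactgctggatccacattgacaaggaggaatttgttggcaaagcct
Pcdh10: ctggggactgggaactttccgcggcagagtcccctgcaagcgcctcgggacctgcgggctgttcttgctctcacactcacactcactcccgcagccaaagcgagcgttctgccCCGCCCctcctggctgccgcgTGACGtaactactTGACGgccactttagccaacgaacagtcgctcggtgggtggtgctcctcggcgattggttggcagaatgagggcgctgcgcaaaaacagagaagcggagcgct
The window of Pcdh8 held 1 TATA box, 30 to 25 bases before the start, and no match to the other motifs. TATA box matches occurred in 6.76% of the 14861 windows of tested genes that were read the same way. No listed motif matched in the Pcdh20 window, whose GC content was 42.4% against 51.2% for Pcdh8 and a median of 59.6% over tested genes. The Pcdh10 window held 2 CRE cores, 116 to 112 and 103 to 99 bases before the start, and 1 GC box. CRE cores occurred in 24.7% of the windows, full CREs in 2.42%, AP-1 sites in 4.63% and GC boxes in 55.2%. Windows were read for 8 of the 10 members. Those of Pcdh17, Pcdh18 and Pcdh19 each held 1 GC box, that of Pcdh9 held 1 CRE core and that of Pcdh7 held none of the motifs. A match describes letters and not a bound site.

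Pcdh10, whose tail recruits the WAVE complex and which is known for synapse elimination, lies on chromosome 3 from 45378398 to 45435623. Its lowest, median and highest levels were 189, 224 and 236 CPM in D95N, against 233, 249 and 257 CPM in wild type. The groups overlapped, with 5 D95N libraries below every wild-type one. Its log2 fold change was -0.17 ± 0.04 (SE), a difference of 11.2% of the wild-type level.

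Pcdh19 (X chromosome, 133582860 to 133688987), which partners N-cadherin and is mutated in an epilepsy of girls, stood at 43.8, 53.0 and 66.0 CPM in D95N (lowest, median and highest), against 60.03, 71.2 and 77.4 CPM in wild type. It lay below the whole wild-type range in 5 D95N libraries, and D95N 42 was the highest of its group. The log2 fold change was -0.40 ± 0.09 (SE), and -0.45 without D95N 42. Pcdh18 (chromosome 3, 49743296 to 49757325), known to bind the adaptor Dab1, had the lowest level per kilobase of the family. It stood at 5.72, 6.25 and 8.07 CPM in D95N, against 6.60, 8.79 and 9.33 CPM in wild type, with a log2 fold change of -0.33 ± 0.09 (SE). The groups overlapped, with 4 D95N libraries below the wild-type range. Without D95N 28 and D95N 50 its value was -0.26 ± 0.10 (SE), outside the threshold.

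Pcdh17 (chromosome 14, 84443563 to 84539002), a delta-2 member that organises synapses of corticobasal ganglia circuits in mice, did not separate the genotypes. Its lowest, median and highest levels were 98.6, 110 and 122 CPM in D95N, against 100.3, 111 and 119 CPM in wild type. The log2 fold change of -0.02 ± 0.05 (SE) was smaller than its error. It lies between Pcdh8 and Pcdh20 on the chromosome, so neighbouring members of the family had unlike values.

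Among the delta-1 members, Pcdh1 (chromosome 18, 38185914 to 38212053), an adhesion protein known from airway epithelium and as a receptor of New World hantaviruses, was the one called higher. It stood at 238, 331 and 369 CPM in D95N (lowest, median and highest), against 221, 249 and 277 CPM in wild type. As for Pcdh8, 6 D95N libraries lay above every wild-type library and D95N 42 lay among them. The log2 fold change was 0.37 ± 0.07 (SE), and 0.43 without D95N 42.

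Pcdh7 (chromosome 5, 57717967 to 58133230), whose tail binds a protein phosphatase, stood at 171, 220 and 265 CPM in D95N, against 176, 187 and 201 CPM in wild type. The D95N libraries spread to both sides, with 4 above the wild-type range and D95N 28 below it. Its log2 fold change of 0.19 ± 0.07 (SE) lay just outside the threshold. It lay inside it in DESeq2, in edgeR with DESeq2's size factors, without D95N 28 (0.24), D95N 41 (0.21) or D95N 42 (0.21), and without both D95N 28 and D95N 50 (0.24). An antisense transcript covers 21.1% of its exon length.

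Pcdh11x (X chromosome, 120290259 to 120910619), a delta-1 member expressed in neurons, joined Pcdh20 in having no overlap between the genotypes. It stood at 22.03, 21.9, 18.2, 24.04, 27.1, 23.3 and 18.5 CPM in D95N 21, 28, 4, 41, 42, 44 and 50, against 33.7, 31.0, 30.4, 32.9, 30.1, 28.4, 29.1 and 29.6 CPM in wild type 11, 16, 19, 24, 30, 32, 43 and 8. The highest D95N library was again D95N 42. The log2 fold change was -0.47 ± 0.07 (SE), a level lower by 27.7%. Leaving out D95N 42 gave -0.52.

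Pcdh9 (chromosome 14, 93013410 to 93890679), known in mice for the structure of sensory cortex and recognition memory, stood at 129, 144 and 170 CPM in D95N (lowest, median and highest), against 156, 168 and 179 CPM in wild type. Here 5 D95N libraries lay below the wild-type range and 2, D95N 41 and D95N 42, lay within them. The log2 fold change was -0.18 ± 0.06 (SE). Pcdh9 no longer reached the threshold without D95N 50, nor without both D95N 28 and D95N 50, where its value was -0.12 ± 0.05 (SE). Of the called members, Pcdh9 and Pcdh18 were nearest to the threshold on the inside, and Pcdh7 was the nearest outside it.

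**Figure D2:**
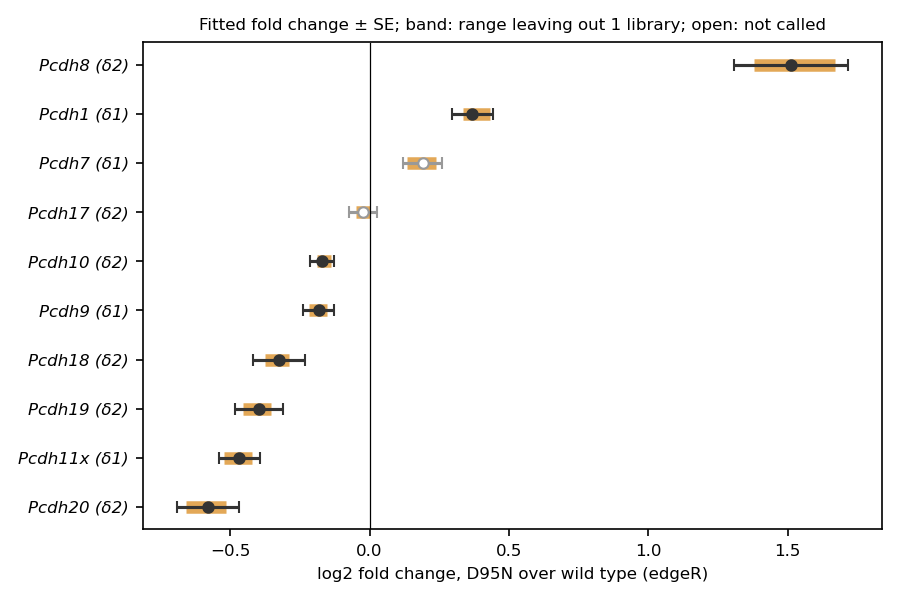
Fitted log2 fold change of each delta protocadherin, D95N over wild type, from edgeR. Points and whiskers are the estimate ± SE, the band is the range over 15 fits that leave out 1 library each, and open points are members outside the threshold. Pcdh8 at 1.51 ± 0.21 lies apart from the other members, which run from -0.58 to 0.37.

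The scatter between animals was wider in D95N. The SD of log2 CPM was larger in D95N than in wild type for 10 of 10 members, also without D95N 42, and for 83.1% of all tested genes. Over the members its median stood at 0.20 in D95N, against 0.09 in wild type. Over all tested genes the median stood at 0.16 in D95N, against 0.09 in wild type. For Pcdh8 the coefficient of variation was 36.4% in D95N and 20.5% there without D95N 42, against 12.3% in wild type, and for Pcdh10, the most even member, 7.71% in D95N, against 3.65% in wild type.

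Levels of different members were compared as CPM per kilobase of exon, since long transcripts collect more reads. In D95N the order of the means ran Pcdh1 at 36.5, Pcdh8 at 30.2, Pcdh9 at 21.8, Pcdh7 at 20.3, Pcdh10 at 13.8, Pcdh17 at 8.41, Pcdh19 at 5.09, Pcdh20 at 4.60, Pcdh11x at 1.59 and Pcdh18 at 1.26 CPM per kb. In wild type it ran Pcdh1 at 28.3, Pcdh9 at 24.7, Pcdh7 at 17.8, Pcdh10 at 15.6, Pcdh8 at 10.6, Pcdh17 at 8.54, Pcdh20 at 6.89, Pcdh19 at 6.70, Pcdh11x at 2.20 and Pcdh18 at 1.58 CPM per kb. Pcdh1 headed both orders and Pcdh18 ended both, while Pcdh8 held rank 2 in D95N and rank 5 in wild type.

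Neighbours in each order were compared within libraries by a two-sided exact sign-flip permutation test, adjusted over the 9 pairs. In D95N 6 of 9 pairs differed (adjusted p = 0.0234 for each, exact permutation test), and the pairs Pcdh1 and Pcdh8 (0.0804), Pcdh8 and Pcdh9 (0.334) and Pcdh9 and Pcdh7 (0.344) did not pass. In wild type 8 of 9 pairs differed (adjusted p = 0.0100 for 7 pairs and 0.0176 for Pcdh17 and Pcdh20, exact permutation test), and Pcdh20 and Pcdh19 did not pass (0.320). The smallest unadjusted p these tests allow is 0.0156 with 7 libraries and 0.00781 with 8. With the longest transcript as length, Pcdh10 moved to rank 3 in D95N and to rank 2 in wild type, so the order of the upper members depends on which exons are counted. With that length 7 of 9 wild-type pairs differed, and Pcdh8 and Pcdh17 no longer passed (adjusted p = 0.0859, exact permutation test). In D95N the pairs Pcdh19 and Pcdh20 (0.0938) and Pcdh10 and Pcdh7 (0.301) then did not pass.

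**Figure D3:**
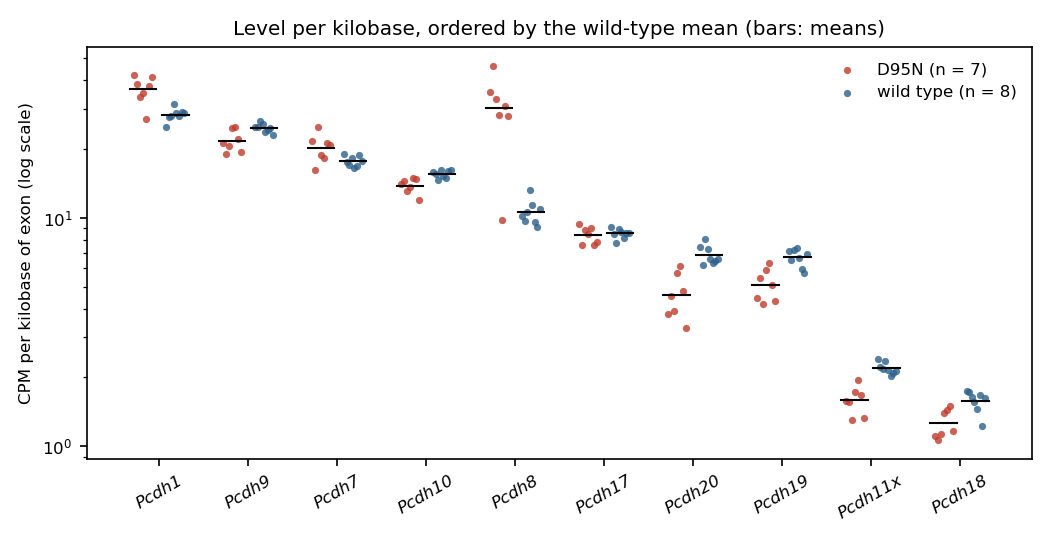
Level of each member as CPM per kilobase of exon (log scale), ordered by the wild-type mean, with D95N points left of wild-type points and bars at the means. The D95N mean of Pcdh8, 30.2, leaves the falling order set by wild type, where it stands at 10.6, although 1 of its D95N points, D95N 42, stays at 9.75. The means of Pcdh20 and Pcdh19 also change places, at 4.60 and 5.09 in D95N and 6.89 and 6.70 in wild type. In wild type this pair did not differ (adjusted p = 0.320, exact sign-flip permutation test).

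Summed over the family, the level reached 144 ± 11.9 CPM per kb in D95N (SD, n = 7) and 123 ± 4.34 CPM per kb in wild type (SD, n = 8). In D95N 42 the sum was 120 CPM per kb, and in the other D95N libraries 139 to 155 CPM per kb. Pcdh8 made up 20.6% ± 6.51 of this sum in D95N (SD, n = 7) and 8.60% ± 0.807 in wild type (SD, n = 8). Its share was highest in D95N 28, at 29.9%, and lowest among D95N libraries in D95N 42, at 8.14%, which lay in the wild-type range of 7.45% to 9.96%.

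Genes that neurons switch on with activity were read beside Pcdh8, since that gene is one of their kind. Of 26 such genes tested, Pcdh8 not among them, 19 rose and 1 fell in D95N, against 15.2% and 11.6% of all tested genes, with a median log2 fold change of 0.91 against -0.01 over all tested genes. Nptx2, a pentraxin of excitatory synapses, stood at 40.6, 426 and 579 CPM in D95N (lowest, median and highest), against 28.5, 40.3 and 55.9 CPM in wild type, and rose by 3.20 ± 0.37 on the log2 scale (SE; edgeR, adjusted p = 0.000112). Bdnf, a neurotrophin, stood at 28.5, 112 and 164 CPM in D95N, against 18.9, 23.7 and 27.8 CPM in wild type (log2 fold change 2.09 ± 0.27, SE; edgeR, adjusted p = 0.000191). Gadd45b, a DNA demethylation factor, rose by 1.69 ± 0.23 (SE; edgeR, adjusted p = 0.000257). In Nptx2, Bdnf and Gadd45b the lowest D95N library was D95N 42, as for Pcdh8, and their fold changes without it are not given here.

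Within each genotype, the 45 pairs of members and the 40 pairs of a member with Bdnf, Nptx2, Homer1 or Egr1 were correlated over libraries, 170 relations in all. None passed Benjamini-Hochberg adjustment for Pearson's r or Spearman's rho (exact permutation tests, two-sided). An unadjusted p under 0.05 for r was reached by 10 member pairs in D95N and 5 in wild type, and by 5 pairs with an activity gene in D95N and 3 in wild type. The values below are therefore given as a description of these 15 libraries.

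Across the 7 D95N libraries Pcdh8 and Nptx2 had r = 0.97 and rho = 0.93 (exact permutation test, two-sided, p = 0.00119 and 0.00675; adjusted p = 0.186 and 0.578). D95N 42 lies apart from the others in this pair, and without it r was 0.78 over 6 libraries. Without D95N 28 and D95N 42, the libraries farthest from the median, r was 0.79 over the remaining 5. Across the 8 wild-type libraries r was 0.25 and rho -0.05 (exact permutation test, p = 0.565 and 0.935; adjusted p = 0.882 and 0.993). For Pcdh8 and Homer1, a postsynaptic scaffold, r was 0.87 and rho 0.86 in D95N (exact permutation test, p = 0.00218 and 0.0238, adjusted p = 0.186 and 0.578). Without D95N 42 this r was 0.81, without D95N 28 and D95N 42 it was 0.70, and in wild type it was 0.04.

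Pcdh19 and Pcdh20 had r = 0.94 and rho = 0.86 in D95N (exact permutation test, two-sided, p = 0.00377 and 0.0238; adjusted p = 0.214 and 0.578), and r = 0.73 and rho = 0.83 in wild type (exact permutation test, p = 0.0399 and 0.0154; adjusted p = 0.340 and 0.578). Without the 2 libraries farthest from the median, r was 0.95 in D95N and 0.84 in wild type. The pair lies on different chromosomes, and both members of it were lower in D95N. Pcdh11x and Pcdh19 had r = 0.90 and rho = 0.89 in D95N (exact permutation test, p = 0.00516 and 0.0123, adjusted p = 0.219 and 0.578), r = 0.75 there without the 2 farthest libraries, and r = 0.74 in wild type. Pcdh11x and Pcdh20 had r = 0.88 and rho = 0.82 in D95N (exact permutation test, p = 0.0111 and 0.0341, adjusted p = 0.340 and 0.645), r = 0.90 there without the 2 farthest libraries, and r = 0.54 in wild type. Pcdh1 and Pcdh8 had r = 0.82 and rho = 0.46 in D95N (exact permutation test, p = 0.0613 and 0.302, adjusted p = 0.401 and 0.803), but r = 0.11 without D95N 42, so this relation rests on that library.

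**Figure D4:**
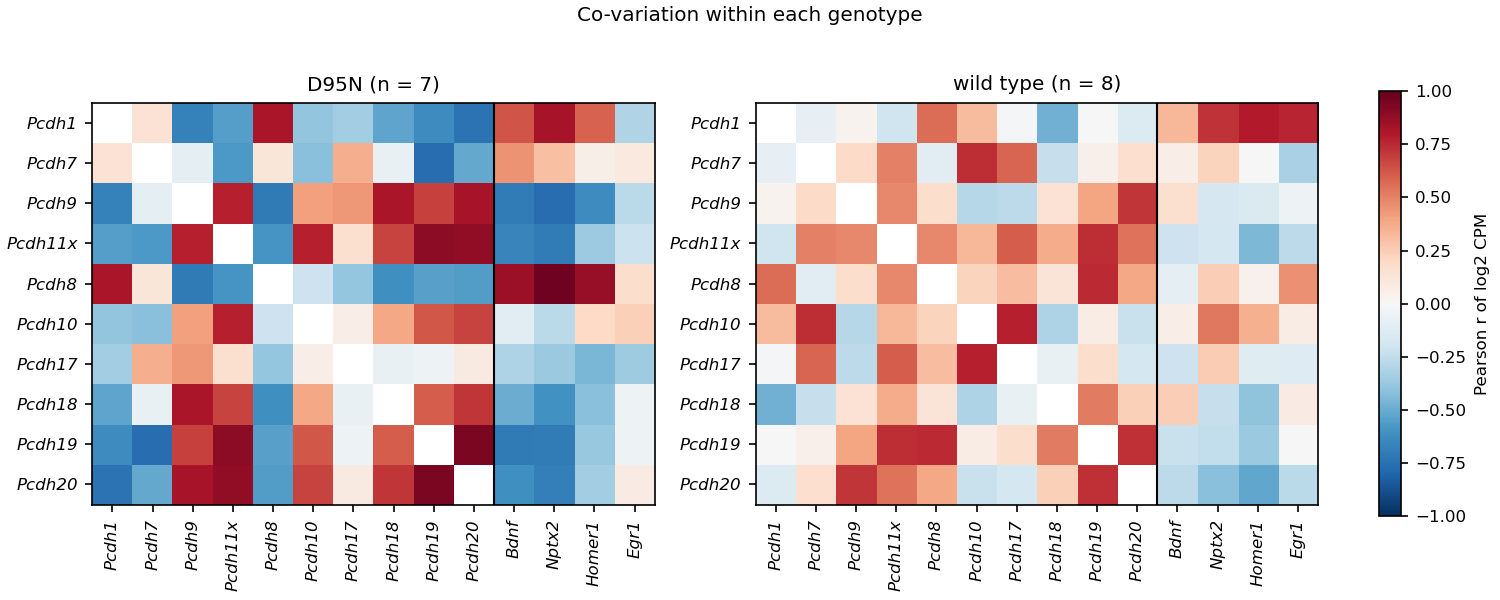
Pearson r of log2 CPM between members, and between members and 4 activity-induced genes right of the vertical line, across the 7 D95N libraries (left) and the 8 wild-type libraries (right). Red is positive and blue negative. In D95N the block of Pcdh11x, Pcdh19 and Pcdh20 holds r of 0.88 to 0.94, and Pcdh8 and Nptx2 have r = 0.97; none of the 170 relations passed adjustment.

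**Figure D5:**
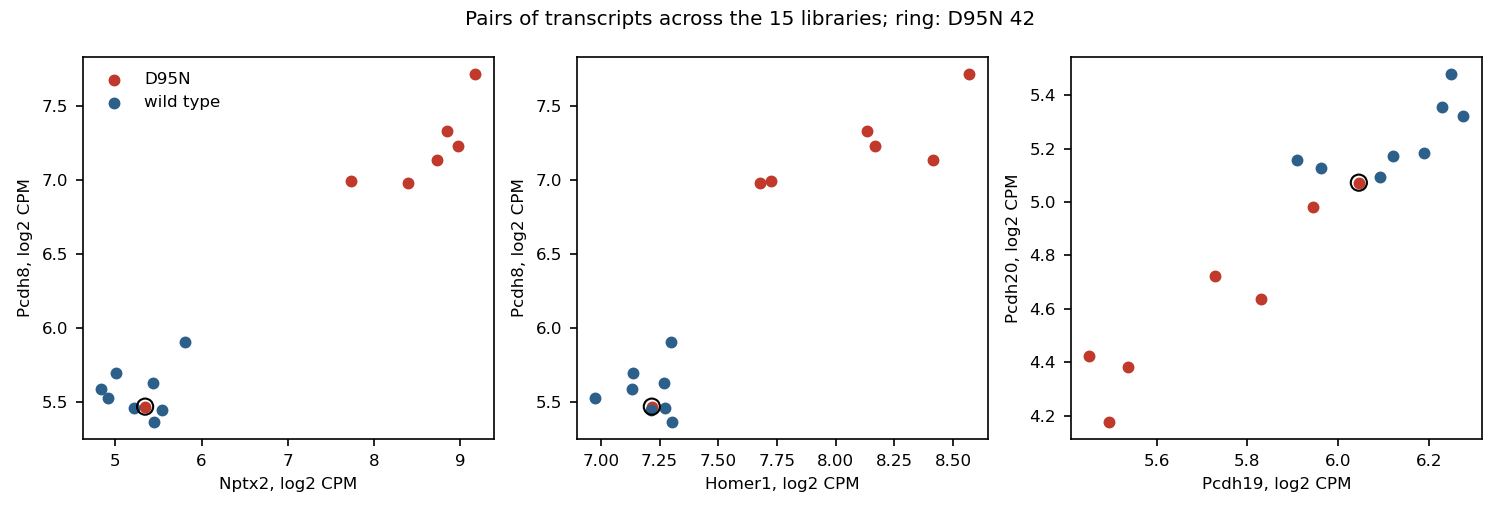
Pcdh8 against Nptx2 (left), Pcdh8 against Homer1 (middle) and Pcdh20 against Pcdh19 (right), all in log2 CPM. Points are libraries, red for D95N and blue for wild type, and the ring marks D95N 42, which lies among the wild-type points of the left and middle panels and at the edge of the D95N points in the right one.

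The genes most like each member were ranked by Pearson r of log2 CPM over the 15 libraries after each genotype's mean was taken off, among 13810 other genes of mean CPM of at least 1. The highest r was 0.96 for Pcdh8 with Cpt1c, a neuronal carnitine palmitoyltransferase, 0.95 for Pcdh7 with Ltn1, a ubiquitin ligase of stalled ribosomes, and 0.95 for Pcdh9 with Megf9. It was 0.94 for Pcdh11x with Csmd3, 0.92 for Pcdh1 with Neurod2, a transcription factor of cortical excitatory neurons, and 0.92 for Pcdh19 with Smarca2, a chromatin remodelling ATPase. It was 0.90 for Pcdh20 with Map2k6, 0.89 for Pcdh10 with Yipf2, 0.88 for Pcdh18 with Atp5s and 0.87 for Pcdh17 with Mdga2. The D95N libraries, whose scatter was wider, weigh more in this r. For these pairs r was 0.88 to 0.98 within D95N and 0.53 to 0.91 within wild type. Pcdh20 with Map2k6 had the lowest wild-type r among them, 0.53 against 0.97 within D95N. Each is the extreme of 13810 values over the same 15 libraries, which differ in depth and in marker levels, so no test goes with them.

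Intracellular partners of the family were called in both directions. Of 14 tested WAVE complex and actin genes 1 rose and 2 fell, 21.4% against 26.8% of all tested genes (0 and 3 when scaled by library totals, 0 and 2 by upper quartiles). Cyfip2, a WAVE subunit, averaged 1025 ± 60.04 CPM in D95N (SD, n = 7) and 1104 ± 22.6 CPM in wild type (SD, n = 8), with -0.11 ± 0.03 as log2 fold change (SE; edgeR, adjusted p = 0.0296). Evl, an Ena/VASP protein, stood at -0.13 ± 0.05 (SE; edgeR, adjusted p = 0.0485), and Brk1, another WAVE subunit, at 0.16 ± 0.06 (SE; edgeR, adjusted p = 0.0371). Leaving out single libraries left 0 to 2 of these genes higher and 0 to 2 lower.

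Of 12 other tested intracellular partners 2 rose and 1 fell (1 and 1 when scaled by totals or upper quartiles). The 2 and 1 are 25% of the list, near the 26.8% of all tested genes. Dab1, the reelin adaptor that Pcdh18 binds, stood at 74.0, 95.7 and 98.1 CPM in D95N (lowest, median and highest), against 101.5, 106 and 116 CPM in wild type, with every D95N library below every wild-type library (log2 fold change -0.24 ± 0.05, SE; edgeR, adjusted p = 0.00463). Mef2d, a relative of the factors that induce Pcdh10, rose by 0.22 ± 0.06 (SE; edgeR, adjusted p = 0.0123). Mdm2, the ubiquitin ligase upstream of Pcdh10 in synapse elimination, stood at 0.12 ± 0.04 (SE; edgeR, adjusted p = 0.0418), a call lost in 14 of the alternatives tried.

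Other cadherins moved in both directions. Of 15 tested large cadherins outside the family 4 rose and 2 fell, and of 19 classical cadherins 3 rose and 4 fell (4 and 1 without D95N 28 and D95N 50). These are 40% and 36.8% of the lists, against 26.8% of all tested genes. Clstn2, a synaptic calsyntenin, rose by 0.32 ± 0.07 (SE; edgeR, adjusted p = 0.00516), and Fat4, a planar polarity cadherin, fell by 0.58 ± 0.13 on the log2 scale (SE; edgeR, adjusted p = 0.00348). Celsr1, another planar polarity cadherin, stood at -0.43 ± 0.09 on the log2 scale (SE; edgeR, adjusted p = 0.00319). Among classical cadherins Cdh8, a synaptic type II cadherin, stood at 38.6, 42.2 and 48.1 CPM in D95N, against 50.7, 55.1 and 57.3 CPM in wild type, with no overlap (log2 fold change -0.33 ± 0.05, SE; edgeR, adjusted p = 0.000297). Cdh22 rose by 0.41 ± 0.10 and Cdh18 by 0.22 ± 0.06 (SE; edgeR, adjusted p = 0.00686 and 0.0118).

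Of 7 catenins, which link classical cadherins to actin and which delta protocadherins do not bind, 3 rose and 2 fell (2 and 2 when scaled by totals or upper quartiles, 2 and 1 without D95N 28 and D95N 50). The 3 and 2 are 71.4% of the list, against 26.8% of all tested genes. Ctnna1 averaged 68.9 ± 5.11 CPM in D95N (SD, n = 7) and 80.6 ± 2.95 CPM in wild type (SD, n = 8), without overlap (log2 fold change -0.23 ± 0.04, SE; edgeR, adjusted p = 0.00161). Ctnna2, the neuronal alpha-catenin, stood at a log2 fold change of -0.17 ± 0.05 and Ctnnb1, beta-catenin, at 0.19 ± 0.05 (SE; edgeR, adjusted p = 0.0152 and 0.0158).

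Markers of other cells and regions moved with the genotype as well. Their counts stand beside 15.2% of all tested genes called higher and 11.6% called lower. All 8 blood genes were lower, with a summed level of 37.3 to 149 CPM in D95N and 81.4 to 312 CPM in wild type. Of 10 meningeal fibroblast markers 5 were lower, with a summed level of 84.2 to 182 CPM in D95N and 157 to 215 CPM in wild type. Slc6a13, a transporter of meningeal cells, stood at 2.88, 4.95 and 7.45 CPM in D95N, against 7.75, 9.46 and 11.2 CPM in wild type, without overlap, and Hbb-bs, a beta-globin, averaged 41.8 CPM in D95N and 89.6 CPM in wild type. Among tissue neighbours, 6 of 12 striatum markers were lower, at a summed level of 923 to 1786 CPM in D95N and 1067 to 1640 CPM in wild type. Of 10 hippocampus markers 2 were higher and 2 lower, at 260 to 646 CPM in D95N and 261 to 351 CPM in wild type. Much of that sum was Wfs1, at a mean of 362 CPM in D95N and 182 CPM in wild type. The median log2 fold change of the hippocampus list was -0.21, and its lower markers were Tdo2 and Iyd. Of 7 claustrum and amygdala markers 5 were lower, among them Lypd1 and Gnb4, at 436 to 496 CPM in D95N and 503 to 583 CPM in wild type. No marker list summed to 0 in any library, and what these markers contribute to the values of the family was not tested beyond the fits that follow.

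With blood and meningeal scores added to the fit, no member passed the threshold (edgeR), and 10 of all 14989 genes did. An unadjusted p under 0.05 in this fit was reached by 5 of 10 members and by 15.6% of all tested genes. Nothing is read from that count, since the members were chosen on this contrast. Standard errors of the members then ran from 0.08 to 0.37, against 0.04 to 0.21 with genotype alone. Pcdh8 stood at 0.89 ± 0.37 (SE), Pcdh18 at -0.18 ± 0.17 and Pcdh9 at -0.10 ± 0.10, each moved towards 0, whereas Pcdh20 at -0.50 ± 0.20, Pcdh11x at -0.49 ± 0.14, Pcdh19 at -0.39 ± 0.16, Pcdh1 at 0.29 ± 0.14 and Pcdh10 at -0.23 ± 0.08 kept most of their size. These scores differ between the genotypes, so a share of the difference that goes with them and a share that goes with genotype cannot be told apart. With a hippocampus score Pcdh8 stood at 1.64 ± 0.24 (SE), and Pcdh9 and Pcdh18 were not called. With a striatum score all 8 called members stayed called, and Pcdh20 stood at -0.72 ± 0.11 (SE).

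Several members share a chromosome. Pcdh8, Pcdh17, Pcdh20 and Pcdh9 lie within 14.1 Mb of chromosome 14, a stretch with 9 counted genes, of which 3 besides the members were tested. Pcdh10 and Pcdh18 lie within 4.38 Mb of chromosome 3 and were both lower in D95N, as were Pcdh11x and Pcdh19, which lie within 13.4 Mb of the X chromosome. Of the other tested genes in these stretches, 0 of 3 on chromosome 14, 0 of 1 on chromosome 3 and 0 of 3 on the X chromosome were called.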

How the data were processed

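RNA was sequenced from 7 heterozygous Rps9 D95N and 8 wild-type mice. Each sample has 1 table of raw counts of reads by Ensembl gene, as deposited. STAR, featureCounts and the GRCm38 build were used, per the submitters' processing notes. No source used here gives their versions, annotation, strand setting or treatment of multi-mapping reads. Of 22524 identifiers 22291 matched GENCODE M21, which gave symbols, positions and exon lengths, and 233 did not.

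The counts as deposited were tested in R 4.3.3 with edgeR 4.0.16 (quasi-likelihood, TMM, default expression filter, genotype as the 1 term, Benjamini-Hochberg at 0.05 over 14989 genes). Standard errors are the log2 fold change over the square root of F. log2 CPM used a prior count of 0.5. Alternatives used limma 3.58.1 (voom), DESeq2 1.42.0, other scalings, no filter, marker scores as covariates, each library left out and, chosen after seeing the data, both shallowest libraries left out. Permutation tests ran in Python 3.11.15 with scipy 1.17.1. The method was tested on simulated data. Members and gene lists were chosen with earlier results of these data known. Named genes are the members, up to 3 called genes of smallest p per list, the gene most like each member, and Rps9. Some genes of this rule are left out, and Homer1 and Egr1 were added for the correlations. Groups were taken from the genotype field. Batches, litters and dates are absent from the labels. The mice are separate animals per the design text. No 2 libraries of a genotype agreed within sampling noise.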

Additional observations from a re-analysis of the deposited data

Results flagged for a closer look

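In 9 of 100 groups of libraries examined, over 50 transcripts or sums, the highest or lowest library stood far from the rest by Dixon's criterion, which chance alone meets in about 1 of 20 groups. Wild type 24 accounts for 5 of them. It held the highest wild-type sum over the delta protocadherins, at 1238 CPM with the next at 1166 CPM, and the highest sum per kilobase, at 133 with the next at 124 CPM per kb. It was also highest for Ctnnb1 (603 CPM, next 558 CPM) and Gadd45b (13.1 CPM, next 9.98 CPM) and lowest for Rps9 (58.4 CPM, next 64.4 CPM). Among single wild-type libraries, Brk1 stood at 139 CPM in wild type 8 with the next at 128 CPM, Dab1 at 116 CPM in wild type 16 with the next at 108 CPM, and Atp5s at 14.6 CPM in wild type 43 with the next at 16.2 CPM. In D95N the criterion was met by Hbb-bs in D95N 42, at 87.8 CPM with the next at 45.8 CPM. On CPM no single member met it in either genotype, Pcdh8 with its low D95N 42 included. The criterion was not applied to log2 CPM. On that scale Pcdh8 stood at 5.47 in D95N 42, with the next at 6.98 in D95N 50 and the highest at 7.72 in D95N 28. The CPM result therefore does not place D95N 42 with the other D95N libraries.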

How the results depend on the processing

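The members were chosen on this contrast, so the settings below describe their values and add no support. The 8 members past the threshold were the same with library totals, upper-quartile factors, no expression filter, limma-voom and a striatum score. DESeq2, alone or as a source of size factors, added Pcdh7. With blood and meningeal scores 0 members were called, 0 higher and 0 lower, and 10 of all genes; the hippocampus score left 6 members and 2672 genes. Without D95N 28 and D95N 50, 7 members passed, 3 higher with Pcdh7 and 4 lower without Pcdh9 and Pcdh18. Leaving out single libraries gave 7 to 9 members, 2 to 3 higher and 5 to 6 lower, 80 to 111 genes of the other lists, 3263 to 4976 of all genes and 8 neighbour pairs in the wild-type order. With the longest transcript as length, 7 neighbour pairs differed in the wild-type order. The split of all calls, 2272 higher and 1744 lower, was 1808 and 2536 with library totals and 1926 and 2351 with upper-quartile factors. Values near 0 changed sign for Pcdh17, to 0.0212 without D95N 28 and D95N 50; with single libraries left out it ran from -0.0488 to 0.000903 (without D95N 44). It also changed for Map2k6, to 0.0019 with blood and meningeal scores; the cause was not tested. Brk1 and Evl each lost their call in 17 alternatives, Mdm2 in 14, Smarca2 in 11 and Cyfip2 in 8. No paired analysis was possible because litters are absent from the labels, so littermates could not be matched and litter was not modelled.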

Other observations

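Markers of cortical layers and cell classes give the setting in which the members were read. Among all tested genes 15.2% were called higher and 11.6% lower. Of 6 upper layer markers 1 was higher and 4 were lower in D95N, at a summed level of 586 to 693 CPM in D95N and 650 to 688 CPM in wild type. Of 5 layer 4 markers 2 were lower, at 90.2 to 121 CPM in D95N and 99.7 to 118 CPM in wild type, and of 7 layer 6 markers 2 were higher and 2 lower, at 281 to 330 CPM in D95N and 286 to 309 CPM in wild type. Of 8 interneuron markers 4 were higher and 1 lower, at 1190 to 1822 CPM in D95N and 1188 to 1400 CPM in wild type. Of 9 markers of endothelium and mural cells 3 were lower, at 271 to 373 CPM in D95N and 298 to 397 CPM in wild type. The 7 pan-neuronal markers went both ways, 2 being called higher and 2 lower. Syt1 was among the lower ones, its D95N and wild-type means being 1565 and 1740 CPM, without overlap of the genotypes. Slc17a7 was among the higher ones. Slc17a7, the vesicular glutamate transporter of cortical excitatory neurons, stood at 1196, 1881 and 2139 CPM in D95N (lowest, median and highest), against 1144, 1241 and 1458 CPM in wild type, with D95N 42 the lowest of its group (log2 fold change 0.50 ± 0.10, SE; edgeR, adjusted p = 0.00232).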
